A study of Mus musculus with 6 samples.

Results

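The genes described here are 37 members of the hypoxia-inducible factor (HIF) pathway outside glycolysis: the HIF subunits, the enzymes that sense oxygen and turn HIF over, and HIF target genes with roles other than glucose breakdown. They were chosen by gene symbol, with earlier results of these data known. Of them, 35 were among the 18001 genes of the expression table. Adm and Stc1 had no row in it and were not analysed here. In the experiment, the immortalized mouse embryo fibroblast line NIH/3T3 received for 48 h either an siRNA pool against the glycolytic enzyme gene Aldoa (siAldoa) or a pool without a target (siCtrl). Each group had 3 poly(A) RNA libraries, labelled as replicates 1 to 3, and both groups were the same line in the same serum-containing medium. The study calls them biological replicates without saying, in the text or labels, how they were separated, and p-values measure the spread between these libraries. Values are CPM, the reads of a gene relative to an effective library size, and differences are in log2(CPM + 1), so that those of genes with few reads are understated.

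HIF is a transcription factor made of an oxygen-regulated alpha subunit and the constant partner ARNT. When oxygen is plentiful, prolyl hydroxylases of the Egln family mark the alpha subunit for destruction by the VHL ubiquitin ligase, and the asparaginyl hydroxylase encoded by Hif1an blocks its activity, so the alpha protein is set largely after transcription. Stabilized HIF binds hypoxia response elements and raises genes of blood vessel growth, collagen modification, mitophagy, histone demethylation and glycolysis, and it also raises some of its own inhibitors.

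Reads per gene could be recovered from the deposited CPM, with 3692341 to 3771129 reads per library, so that 3 reads corresponded to 0.786 to 0.822 CPM. Aldoa was 522, 536 and 545 CPM in siCtrl and 62.9, 69.2 and 72.0 CPM in siAldoa replicates 1, 2 and 3, a fall to 12.7% of control (log2 fold change -2.96, SE 0.052, limma adjusted p = 1.3e-21). Replicate 3 stood apart in both groups: the chi-square per degree of freedom over genes was 1.12 in siCtrl and 1.11 in siAldoa between replicates 1 and 2, and 2.07 to 3.24 between either of them and replicate 3. Summed CPM of 10 fibroblast marker genes was 13112 to 13648 in siCtrl and 10855 to 11527 in siAldoa, with 4 members higher, 4 lower and none at 0 in all libraries. Summed CPM was 18.9 to 26.6 in siCtrl and 34.5 to 35.9 in siAldoa for 7 macrophage markers, 6.85 to 11.2 and 1.83 to 4.28 for 4 epithelial markers, and 7.40 to 8.47 and 3.47 to 7.56 for 3 endothelial markers. Of the macrophage markers only Csf1r (0.992 to 7.91 CPM) and Cd14 (12.4 to 19.2 CPM) were called higher, none was called lower, 4 of the 7 had a negative log2 fold change and their median was -0.06. Of the epithelial markers 2 were called lower, and of the endothelial markers none was called. Krt8, among those 2, had only 3, 6 and 6 reads in siCtrl and 4, 0 and 0 in siAldoa. Its adjusted p in edgeR's quasi-likelihood test on recovered reads was 0.11. Summed CPM of 8 proliferation markers was 1776 to 1792 in siCtrl and 1534 to 1566 in siAldoa, with 5 of them lower. Beside these marker counts, 10.4% of all genes were called higher and 10.0% lower, or 15.9% and 16.6% of those with at least 10 CPM. The part of these shifts in the results on HIF pathway genes was not tested. In bulk RNA, fewer cells of a kind and less RNA per cell cannot be told apart.

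Of the 35 HIF pathway genes, 11 were higher and 1 was lower in siAldoa at a limma adjusted p under 0.05, and 23 did not pass. Of all genes tested, 10.4% were called higher and 10.0% lower, 20.4% in either direction. Among genes with a mean of at least 10 CPM, the background was 15.9% higher and 16.6% lower, against 11 and 1 of the 25 HIF pathway genes at that level, and none of the 10 below it was called. The genes called higher were Hif1an, Egln1, Vegfa, Ddit4, P4ha1, P4ha2, Plod2, Kdm3a, Kdm4b, Higd1a and Bhlhe40, with log2 fold changes between 0.27 and 0.73, and the gene called lower was Angptl4, at -0.97. Every siAldoa library lay above every siCtrl library for 14 HIF pathway genes and below for 4, where 16.7% and 17.1% of all genes did so.

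The median log2 fold change of the 35 genes was 0.17, and it was 0.27 without Epas1 and Car12, which had a mean of 3 reads or fewer in both groups, against -0.0023 over all genes. Relative to the siCtrl mean, the median difference was 0.22, 0.20 and 0.22 in siAldoa replicates 1, 2 and 3, with 24, 25 and 27 of the 35 genes above that mean. The same median was -0.033, 0.019 and 0.017 in the siCtrl libraries. The shift from this shared siCtrl mean was thus of like size in every siAldoa library. The single genes ranged widely on both sides of 0, as the plot of fold changes shows. With 1 library or 1 replicate number left out, the median log2 fold change of the 35 genes was 0.12 to 0.23.

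**Figure D1:**
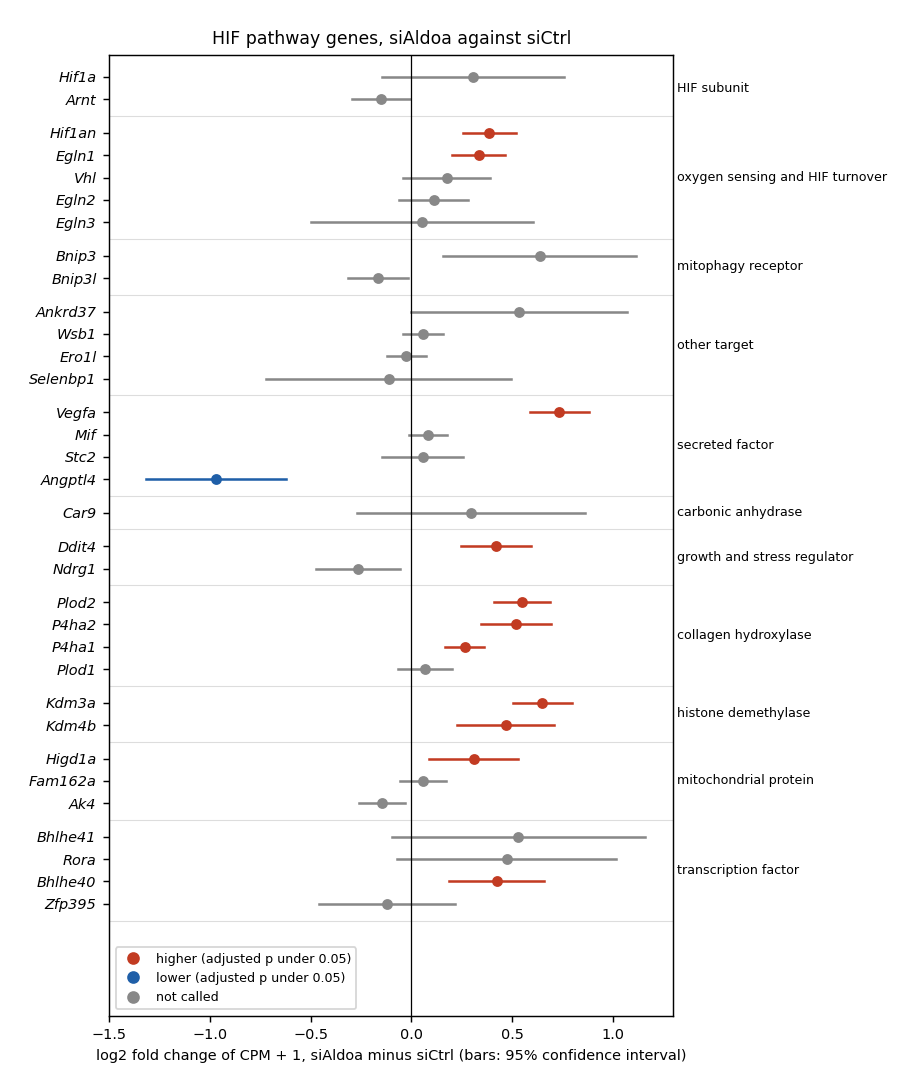
Log2 fold change of CPM + 1, siAldoa minus siCtrl (x axis, 3 libraries each), of 33 HIF pathway genes (y axis) grouped by role, with 95% confidence intervals from limma; red is higher, blue lower and grey not called at an adjusted p under 0.05. Epas1 and Car12 are left out for lack of reads. The 11 genes called higher lie between 0.27 and 0.73, and Angptl4 lies at -0.97.

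The number of genes called depended on having all replicates and on the mean-variance trend used in the limma test. With replicate 1, 2 or 3 left out of both groups, 6, 5 and 5 of the 11 were still called higher, and Angptl4 was not called without replicate 3. In the same fits 740, 683 and 494 of all genes were called higher, against 1867 with all libraries. With all libraries but without the mean-variance trend, 4 of the 11 and Bnip3 were called higher, and 824 of all genes. Egln1, Ddit4, P4ha1, P4ha2, Kdm4b, Higd1a and Bhlhe40 were then not called. Hif1an, Vegfa, Plod2 and Kdm3a were called under each of the 17 alternative settings tried.

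Of the 35 genes, 10 encode dioxygenases that need oxygen, iron and 2-oxoglutarate: Hif1an, the 3 Egln genes, the 4 collagen hydroxylases and both histone demethylases. All 10 had a positive log2 fold change, with a median of 0.36, and 7 of them were called higher. Of all genes, 10.4% were called higher, and 15.9% of those with at least 10 CPM. Dioxygenase genes among the other HIF targets counted below were mixed. Jmjd6 was called higher at 0.23, while Kdm4c (0.15), Kdm5c (-0.04) and Kdm2b (-0.19) were not called. Of the other 25 of the 35 genes, 4 were called higher and 1 lower, and their median was 0.08. This grouping was made after the values were seen and was not tested.

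Promoter sequence was available for 27 of the 35 genes, from 250 bases before to 50 bases after the RefSeq transcription start (GRCm38.p6), and was searched for the hypoxia response element cores ACGTG and GCGTG on both strands. The palindrome CACGTG, an E-box, counts as ACGTG on both strands. For genes with several starts, the first listed was used. The bases before the start that lie outside any annotated exon of the gene are shown for 4 of the genes called higher and for Bnip3, whose window held the E-box and the most cores of the 5. Capitals mark the cores, read as printed or, for CACGT and CACGC, on the other strand. The windows are chr8:124949325-124949504, minus strand, for Egln1, chr10:59323046-59323295, plus strand, for P4ha1, chr11:54100674-54100923, plus strand, for P4ha2, chr10:59951835-59952020, minus strand, for Ddit4, and chr7:138909520-138909756, minus strand, for Bnip3. That of P4ha2 lies inside the bounds of the annotated gene, which has an earlier start, but outside its exons.
Egln1: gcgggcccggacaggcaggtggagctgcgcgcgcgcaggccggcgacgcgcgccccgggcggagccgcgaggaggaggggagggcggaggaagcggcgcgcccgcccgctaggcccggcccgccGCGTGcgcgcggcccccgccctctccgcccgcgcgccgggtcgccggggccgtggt
P4ha1: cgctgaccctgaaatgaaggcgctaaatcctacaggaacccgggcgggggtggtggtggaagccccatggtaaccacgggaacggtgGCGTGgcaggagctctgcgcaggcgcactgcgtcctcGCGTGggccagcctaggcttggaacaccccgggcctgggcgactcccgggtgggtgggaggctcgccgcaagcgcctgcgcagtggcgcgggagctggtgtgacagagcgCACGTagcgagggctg
P4ha2: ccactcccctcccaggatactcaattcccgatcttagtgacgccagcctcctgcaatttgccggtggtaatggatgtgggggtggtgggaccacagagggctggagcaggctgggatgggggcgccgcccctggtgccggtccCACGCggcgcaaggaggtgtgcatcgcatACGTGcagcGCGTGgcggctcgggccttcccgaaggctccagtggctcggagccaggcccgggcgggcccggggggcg
Ddit4: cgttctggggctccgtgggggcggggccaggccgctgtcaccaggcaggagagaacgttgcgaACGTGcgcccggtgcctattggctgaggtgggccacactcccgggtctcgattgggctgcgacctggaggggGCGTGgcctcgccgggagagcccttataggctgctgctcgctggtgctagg
Bnip3: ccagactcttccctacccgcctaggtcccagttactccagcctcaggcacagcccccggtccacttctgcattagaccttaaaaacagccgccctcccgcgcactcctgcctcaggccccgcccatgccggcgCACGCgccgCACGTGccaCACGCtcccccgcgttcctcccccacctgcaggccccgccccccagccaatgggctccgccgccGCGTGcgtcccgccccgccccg

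Either core was in 23 of the 27 promoters (85.2%), in 59.7% of the first listed promoters of 11192 genes of the expression table matched by symbol, and in 43.8% of all 32851 promoters of this length. ACGTG was in 66.7% of the HIF pathway promoters and 24.4% of those of the expression table, and GCGTG in 70.4% and 48.5%. Most of these genes were listed as HIF targets, so a higher share may come with the choice of genes. The shares were not tested. Among the HIF pathway genes, 6 of the 8 called higher and 17 of the 19 not called held a core, so the presence of a core did not separate them. Neither core was in the window of Hif1an, Vegfa, Vhl or Car12, which says only that these letters are not there. Angptl4, the gene called lower, was not among the 27.

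**Figure D2:**
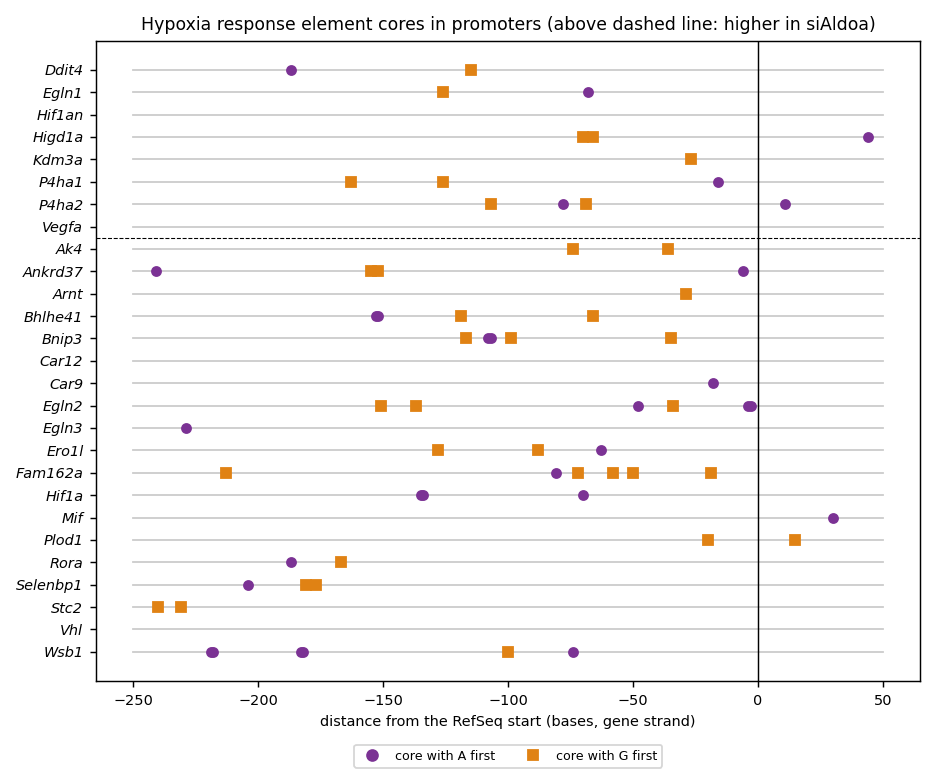
Distance of each hypoxia response element core from the RefSeq start in bases on the gene's strand (x axis) in the promoters of 27 HIF pathway genes (y axis); circles mark the core that begins with A, squares the one that begins with G. The 8 genes above the dashed line were higher in siAldoa, and cores occur on both sides of it, in 6 of those 8 and 17 of the other 19.

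The HIF subunits themselves were not called. Hif1a (ENSMUSG00000021109, chr12:73901375-73947530 of GRCm38, plus strand), the main alpha subunit gene, was 4.38, 5.20 and 6.61 CPM in siCtrl and 6.75, 7.22 and 6.55 CPM in siAldoa, from 16 to 27 reads per library. The siCtrl replicate 3 library lay within the siAldoa range, and the log2 fold change was 0.31 (95% CI -0.15 to 0.76, limma adjusted p = 0.38). Of its 5896 exon bases, 148 are shared with another gene on the same strand and 330 with a gene on the other strand. Epas1, the second alpha subunit gene, had 1, 0 and 0 reads in siCtrl and 1, 0 and 1 in siAldoa, so no fold is given. Arnt, the partner subunit gene, was 80.3, 75.0 and 85.5 CPM in siCtrl and 69.6, 75.9 and 70.7 CPM in siAldoa, with a log2 fold change of -0.15 (95% CI -0.30 to -0.01, limma adjusted p = 0.14). Per kilobase of exons, the siCtrl level of Arnt was 10.0 CPM, that of Hif1a 0.916 and that of Epas1 0.0163. The length merges the exons of all annotated transcripts of a gene, so such levels compare different genes only roughly. The Hif1a to Arnt ratio of CPM was 0.0546, 0.0693 and 0.0774 in siCtrl and 0.0969, 0.0951 and 0.0926 in siAldoa.

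Of the 5 oxygen sensing and turnover genes, Hif1an and Egln1 rose. Hif1an (ENSMUSG00000036450, chr19:44562850-44576274, plus strand), the asparaginyl hydroxylase that inhibits HIF, was 72.3, 76.0 and 75.7 CPM in siCtrl and 94.2, 95.9 and 104 CPM in siAldoa. All 3 siAldoa libraries lay above all siCtrl libraries (log2 fold change 0.39, SE 0.064, limma adjusted p = 8.7e-05). Egln1 (ENSMUSG00000031987, chr8:124908587-124949324, minus strand), the main HIF prolyl hydroxylase, was 94.8, 101 and 95.2 CPM in siCtrl and 121, 113 and 134 CPM in siAldoa, again without overlap (log2 fold change 0.33, SE 0.063, limma adjusted p = 0.00042). Its limma adjusted p was 0.082 without replicate 1 of both groups and 0.096 without replicate 3.

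The other members of this group did not pass. Egln2, a constitutive prolyl hydroxylase, was 58.3, 56.4 and 63.8 CPM in siCtrl and 68.3, 56.4 and 68.9 CPM in siAldoa (log2 fold change 0.11, 95% CI -0.06 to 0.28, limma adjusted p = 0.40). Egln3, known in many cells as a strongly hypoxia-inducible prolyl hydroxylase, had only 8 to 16 reads per library, with 3.29, 2.46 and 2.65 CPM in siCtrl and 2.70, 4.28 and 2.09 CPM in siAldoa. Its groups overlapped, and the interval of its log2 fold change ran from -0.50 to 0.60, so a change of moderate size was not detectable at this depth. Vhl, the substrate receptor of the ubiquitin ligase, was 27.4, 29.3 and 32.8 CPM in siCtrl and 36.4, 33.1 and 31.7 CPM in siAldoa (log2 fold change 0.17, 95% CI -0.04 to 0.39, limma adjusted p = 0.27). Per kilobase of exons the siCtrl level of Egln1 was 27.0 CPM, that of Egln2 21.2 and that of Egln3 1.05. The Egln1 to Egln2 ratio of CPM was 1.62, 1.80 and 1.49 in siCtrl and 1.78, 2.01 and 1.94 in siAldoa.

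**Figure D3:**
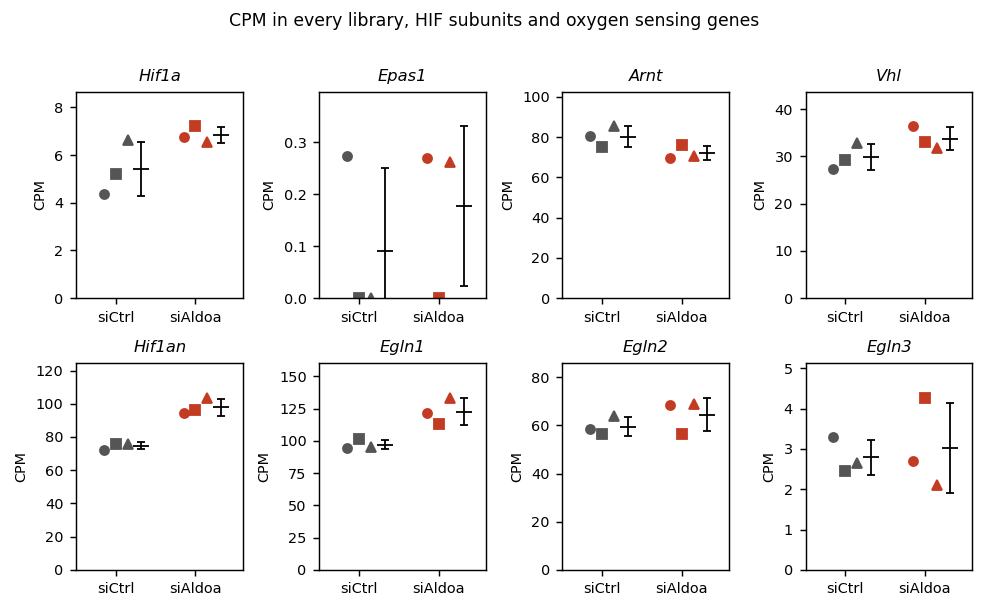
CPM (y axis, from 0) of the HIF subunit and oxygen sensing genes in each siCtrl (grey) and siAldoa (red) library; circles, squares and triangles are replicates 1, 2 and 3, and the bar beside them is mean ± SD (n = 3). Hif1an and Egln1 do not overlap between groups, while Epas1 rests on at most 1 read in a library and its siCtrl bar is cut at 0.

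The collagen hydroxylases, which modify procollagen in the endoplasmic reticulum before it is secreted, gave 3 of 4 genes higher. Plod2 (ENSMUSG00000032374, chr9:92542223-92608428, plus strand), the lysyl hydroxylase of collagen telopeptides, was 59.7, 66.2 and 64.8 CPM in siCtrl and 93.1, 91.7 and 95.3 CPM in siAldoa. It was higher in 3 of 3 siAldoa libraries, from 63.6 ± 3.42 to 93.4 ± 1.83 CPM (SD, n = 3), with a log2 fold change of 0.55 (SE 0.066, limma adjusted p = 1.5e-06). Its relative Plod1 was 83.5, 80.4 and 82.3 CPM in siCtrl and 80.7, 89.3 and 88.8 CPM in siAldoa, with a log2 fold change of 0.07 (95% CI -0.06 to 0.20, limma adjusted p = 0.52). The Plod2 to Plod1 ratio of CPM was accordingly 0.715, 0.823 and 0.788 in siCtrl and 1.15, 1.03 and 1.07 in siAldoa.

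P4ha2 and P4ha1 encode alternative catalytic subunits of collagen prolyl hydroxylase. P4ha2 (ENSMUSG00000018906, chr11:54100095-54131665, plus strand) was 68.5, 55.3 and 56.6 CPM in siCtrl and 77.2, 90.1 and 92.4 CPM in siAldoa (log2 fold change 0.52, SE 0.084, limma adjusted p = 6.3e-05). P4ha1 (ENSMUSG00000019916, chr10:59323296-59373304, plus strand) was 215, 200 and 195 CPM in siCtrl and 243, 246 and 244 CPM in siAldoa (log2 fold change 0.27, SE 0.047, limma adjusted p = 0.00017). Neither gene overlapped between groups, and P4ha1 was the smallest called rise among the HIF pathway genes. The P4ha2 to P4ha1 ratio of CPM was 0.318, 0.276 and 0.290 in siCtrl and 0.317, 0.366 and 0.378 in siAldoa. Without replicate 2 of both groups the limma adjusted p was 0.096 for P4ha2 and 0.060 for P4ha1, and without replicate 3 it was 0.14 and 0.065.

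Among the secreted factors, Vegfa and Angptl4 moved in opposite directions. Vegfa (ENSMUSG00000023951, chr17:46016993-46032369, minus strand), the growth factor of blood vessels, was 51.2, 56.4 and 57.7 CPM in siCtrl and 95.3, 87.1 and 94.3 CPM in siAldoa. The groups lay far apart, at 55.1 ± 3.41 and 92.2 ± 4.44 CPM (SD, n = 3), a 1.67-fold difference. On the scale of log2(CPM + 1) its change was the highest of the HIF pathway genes (0.73, SE 0.071, limma adjusted p = 5.5e-08). By the ratio of mean CPM, Bnip3 (1.71), Ankrd37 (1.70) and Bhlhe41 (1.87) were higher, with few reads and no call. Angptl4 (ENSMUSG00000002289, chr17:33773750-33781830, minus strand), an inhibitor of lipoprotein lipase that peroxisome proliferator-activated receptors also regulate, was 21.6, 16.1 and 19.8 CPM in siCtrl and 10.5, 9.89 and 7.59 CPM in siAldoa. It fell in 3 of 3 siAldoa libraries to 48.6% of control (log2 fold change -0.97, SE 0.168, limma adjusted p = 0.00015). Without replicate 3 of both groups the log2 fold change was -0.81 and the limma adjusted p 0.083. Mif, a cytokine, had groups that did not overlap, at 201 ± 4.50 and 213 ± 4.09 CPM (SD, n = 3), and a log2 fold change of 0.08 that did not pass (95% CI -0.01 to 0.17, limma adjusted p = 0.24). Mif shares near-identical sequence, over up to 508 bases, with 6 genes, of which 4 are in the table. Stc2, a secreted glycoprotein, was 39.9 ± 4.84 CPM in siCtrl and 41.4 ± 2.80 CPM in siAldoa (SD, n = 3, limma adjusted p = 0.76).

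Both histone demethylases were higher. Kdm3a (ENSMUSG00000053470, chr6:71588972-71632990, minus strand), which removes repressive methylation from histone H3, was 56.4, 62.1 and 52.6 CPM in siCtrl and 90.9, 90.1 and 88.8 CPM in siAldoa. Its siAldoa libraries were closely grouped, at 89.9 ± 1.10 against 57.1 ± 4.76 CPM (SD, n = 3), and the log2 fold change was 0.65 (SE 0.071, limma adjusted p = 3.6e-07). Kdm4b (ENSMUSG00000024201, chr17:56326062-56402870, plus strand), another histone H3 demethylase, was 27.7, 25.7 and 20.1 CPM in siCtrl and 34.0, 35.3 and 32.7 CPM in siAldoa, without overlap (log2 fold change 0.47, SE 0.116, limma adjusted p = 0.0050). The limma adjusted p of Kdm4b was 0.068, 0.14 and 0.10 without replicate 1, 2 and 3 of both groups.

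**Figure D4:**
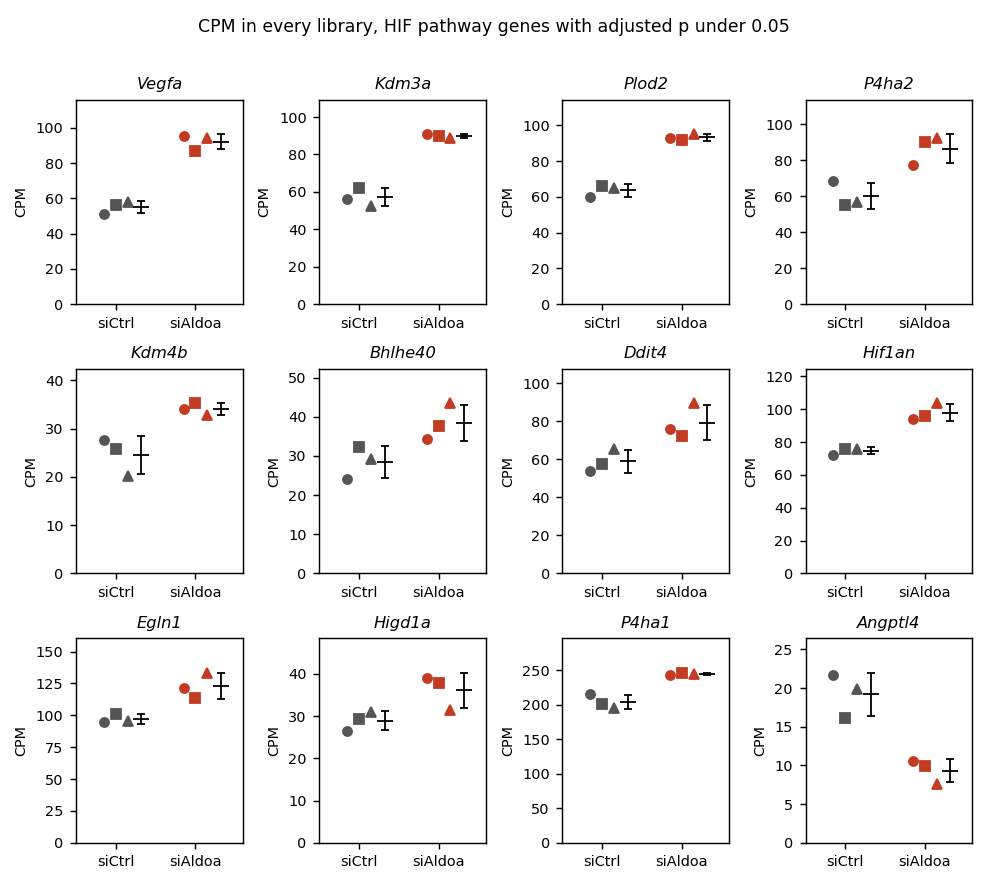
CPM (y axis, from 0) in each siCtrl (grey) and siAldoa (red) library of the 12 HIF pathway genes with an adjusted p under 0.05; circles, squares and triangles are replicates 1, 2 and 3, and the bar beside them is mean ± SD (n = 3). In all 12 panels the groups do not overlap; Higd1a comes closest, at 31.0 against 31.4 CPM.

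The growth and stress regulators differed in direction. Ddit4 (ENSMUSG00000020108, chr10:59949669-59951834, minus strand), an inhibitor of mTOR signalling, was 53.7, 57.7 and 65.3 CPM in siCtrl and 75.8, 72.2 and 89.5 CPM in siAldoa (log2 fold change 0.42, SE 0.085, limma adjusted p = 0.00078). Replicate 3 was the highest library of both groups, which did not overlap, and the limma adjusted p was 0.11 without replicate 1 and 0.077 without replicate 2 of both groups. Ndrg1, a stress-responsive gene, was 37.8, 39.4 and 33.6 CPM in siCtrl and 29.7, 28.9 and 33.3 CPM in siAldoa, each siAldoa library below each siCtrl library. Its log2 fold change of -0.26 did not pass (95% CI -0.47 to -0.05, limma adjusted p = 0.070).

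Of the genes for mitophagy receptors and mitochondrial proteins, only Higd1a was called. Higd1a (ENSMUSG00000038412, chr9:121848563-121858362, minus strand), a small protein of the inner mitochondrial membrane, was 26.6, 29.3 and 31.0 CPM in siCtrl and 39.1, 38.0 and 31.4 CPM in siAldoa. Replicate 3 of siAldoa was only just above replicate 3 of siCtrl, and the log2 fold change was 0.31 (SE 0.107, limma adjusted p = 0.043). The call was lost in 12 of the 17 alternatives, with a limma adjusted p of 0.088 with the replicate number as a block, and with limma adjusted p-values of 0.18, 0.10 and 0.062 without siCtrl replicate 1, 2 or 3, of 0.20 and 0.17 without siAldoa replicate 1 or 2, and of 0.40, 0.30 and 0.068 without replicate 1, 2 or 3 of both groups. It also shares 22.5% of its exon bases with a gene on the other strand, and near-identical stretches with 2 genes.

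Bnip3, a mitophagy receptor of the outer mitochondrial membrane, had 11, 15 and 12 reads in siCtrl and 20, 22 and 24 in siAldoa, or 3.01, 4.10 and 3.17 against 5.40, 5.88 and 6.28 CPM. Its groups did not overlap and its log2 fold change of 0.64 was among the highest, but the limma adjusted p was 0.056. On recovered reads, the adjusted p was 0.044 in edgeR's quasi-likelihood test and 0.21 in DESeq2. With the replicate number as a block the limma adjusted p was 0.077, and Bnip3 was called in 3 of the 17 alternatives. Its relative Bnip3l was 66.6, 67.3 and 70.6 CPM in siCtrl and 56.9, 62.5 and 62.8 CPM in siAldoa, lower in 3 of 3 siAldoa libraries but not called (log2 fold change -0.16, 95% CI -0.31 to -0.02, limma adjusted p = 0.12). Per kilobase of exons the siCtrl level was 1.51 CPM for Bnip3 and 17.7 CPM for Bnip3l. By this rough measure, the receptor gene with the higher level was the one with the negative log2 fold change. The Bnip3 to Bnip3l ratio of CPM was 0.045, 0.061 and 0.045 in siCtrl and 0.095, 0.094 and 0.10 in siAldoa. Bnip3 shares near-identical sequence with 5 genes, of which 2 are in the table, and 22.3% of its exon bases with a gene on the other strand. Bnip3l shares near-identical sequence over up to 1131 bases with 1 gene, which is in the table.

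The other mitochondrial genes were abundant and changed little. Ak4, a mitochondrial adenylate kinase, was 153, 152 and 143 CPM in siCtrl and 138, 126 and 141 CPM in siAldoa, each siAldoa library below each siCtrl library (log2 fold change -0.15, 95% CI -0.26 to -0.03, limma adjusted p = 0.069). Fam162a, a mitochondrial protein, was 136 ± 7.99 CPM in siCtrl and 141 ± 2.79 CPM in siAldoa (SD, n = 3), with a 95% CI of its log2 fold change from -0.06 to 0.17.

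Among the transcription factors only Bhlhe40 was called. Bhlhe40 (ENSMUSG00000030103, chr6:108660629-108666925, plus strand), a basic helix-loop-helix repressor that also acts in the circadian clock, was 24.1, 32.3 and 29.1 CPM in siCtrl and 34.3, 37.7 and 43.5 CPM in siAldoa. The groups did not overlap (log2 fold change 0.42, SE 0.114, limma adjusted p = 0.0094), but the limma adjusted p was 0.091 without siCtrl replicate 1, 0.054 without siAldoa replicate 2, 0.11 without siAldoa replicate 3, and 0.096, 0.10 and 0.27 without replicate 1, 2 and 3 of both groups. Its relative Bhlhe41 had 1 to 11 reads per library and a log2 fold change of 0.53 (95% CI -0.10 to 1.16). Rora, a nuclear receptor, had a log2 fold change of 0.47 (95% CI -0.07 to 1.02) at 3.44 ± 1.15 and 5.15 ± 1.57 CPM (SD, n = 3). Zfp395, a zinc finger protein, was 14.8 ± 2.68 CPM in siCtrl and 13.5 ± 1.77 CPM in siAldoa (SD, n = 3).

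Several textbook HIF targets were too low in these cells to be followed. Car9, a carbonic anhydrase of the cell surface, had 2, 6 and 4 reads in siCtrl and 5, 5 and 7 in siAldoa (95% CI of its log2 fold change -0.27 to 0.86). Car12, another carbonic anhydrase, had 3, 0 and 3 reads in siCtrl and 1, 0 and 2 in siAldoa, so no fold is given. Ankrd37, an ankyrin repeat protein, had 7, 4 and 7 reads in siCtrl and 10, 10 and 11 in siAldoa, higher in 3 of 3 siAldoa libraries but not called (log2 fold change 0.53, limma adjusted p = 0.17). Selenbp1, a selenium-binding protein, was 1.35 ± 0.714 CPM in siCtrl and 1.15 ± 0.593 CPM in siAldoa (SD, n = 3), and its transcript is nearly identical to that of Selenbp2. In contrast, Ero1l, an oxidase of protein folding in the endoplasmic reticulum, was well measured at 227 ± 10.0 and 223 ± 6.68 CPM (SD, n = 3), with a 95% CI of its log2 fold change from -0.12 to 0.07. Wsb1, a ubiquitin ligase subunit, was likewise well measured at 199 ± 5.17 and 207 ± 9.49 CPM (SD, n = 3), with a 95% CI from -0.04 to 0.16.

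The ratios of 5 pairs of related genes given above were compared between groups with two-sided exact permutation tests of 3 against 3 libraries. These tests were not planned, and Hif1a with Arnt was not among the pairs planned for description. Other planned pairs, such as Bhlhe40 with Bhlhe41, were not tested, and the adjustment covers only the 5 pairs. The Plod2 to Plod1, Bnip3 to Bnip3l and Hif1a to Arnt ratios did not overlap between groups and gave p = 0.10 in the exact test, the smallest this design allows, and an adjusted p of 0.17 over the 5 pairs. The P4ha2 to P4ha1 and Egln1 to Egln2 ratios overlapped and gave p = 0.20 in the exact test.

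Other genes of the HIF pathway were counted from 3 further lists, beside the same background of 10.4% of all genes higher and 10.0% lower, or 15.9% and 16.6% of those with at least 10 CPM. Of 20 glycolytic HIF targets, 8 were higher and 3 lower, with a median log2 fold change of 0.22. The glucose transporter gene Slc2a1 rose from 71.4 ± 5.72 to 111 ± 3.39 CPM (SD, n = 3, log2 fold change 0.63, limma adjusted p = 1.9e-07), and Pfkfb3, a regulator of glycolytic flux, had a log2 fold change of 0.69 (limma adjusted p = 0.0020). The lowest called were Gapdh at -0.19 and Pgam1 at -0.13, both glycolytic enzymes, each with a limma adjusted p of 0.013. Of 40 other HIF targets in the table, 16 were higher and 3 lower, with a median of 0.16. The metal-binding metallothioneins Mt1 and Mt2 had the highest values of these, with log2 fold changes of 1.02 and 1.08 (limma adjusted p = 1.3e-11 and 2.4e-06). The lowest were Tfrc, the transferrin receptor, which fell from 473 ± 7.65 to 340 ± 3.43 CPM (SD, n = 3, log2 fold change -0.47, limma adjusted p = 1.7e-09), and Met, a growth factor receptor, at -0.32 (limma adjusted p = 5.2e-06). Of 13 other HIF regulators, 2 were higher and 3 lower (15.4% and 23.1%), near the background of genes with at least 10 CPM, with a median of -0.0012. No test compared the lists with each other. Near-identical and overlapping genes were searched only for the HIF pathway genes described above, not for the genes of these lists.

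**Figure D5:**
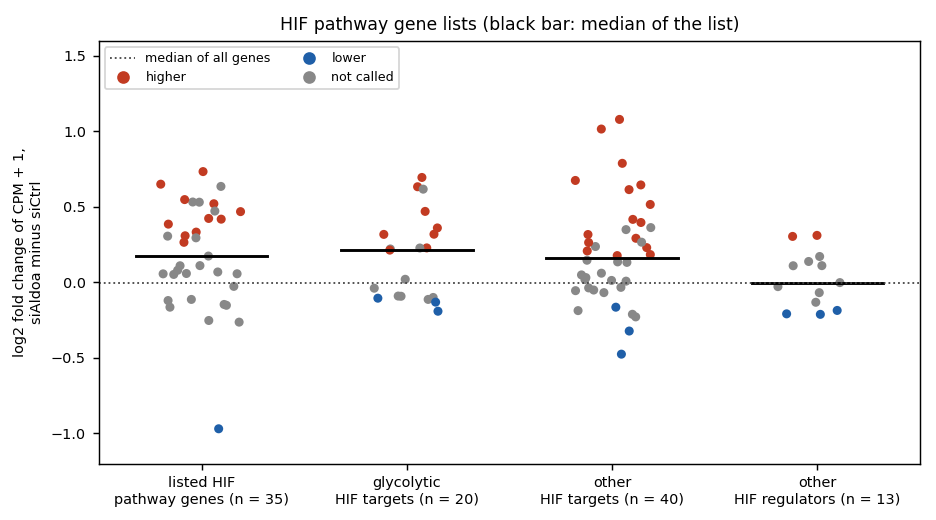
Log2 fold change of CPM + 1, siAldoa minus siCtrl (y axis), of each gene of 4 HIF pathway lists (x axis); points are genes, black bars are list medians, the dotted line is the median of all genes, red is higher, blue lower and grey not called. The medians are 0.17, 0.22, 0.16 and -0.0012 for the 35 HIF pathway genes, the 20 glycolytic targets, the 40 other targets and the 13 other regulators.

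The calls of Gapdh, Pgam1 and Pfkfb3 were lost in 7, 8 and 4 of the 17 alternatives, and the count of glycolytic targets called higher was 3 to 7 with libraries left out. Slc2a1, Tfrc, Met, Mt1 and Mt2 were called in all 17.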

How the data were processed

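NIH/3T3 poly(A) RNA was sequenced in 6 libraries. The authors aligned reads to mm10 with Bowtie2 (version 2.2.7), drew equal numbers of them per sample, counted reads per gene and deposited CPM of an effective library size for 18001 genes. The annotation release and the use of strand in counting are not given in the sources used here. A spike-in was added to the lysis buffer for replicate 1 and after extraction for replicates 2 and 3. A deposited table of the authors' own comparison (log2 fold changes, log2 mean CPM, p-values and adjusted p-values) was not used.

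The main test was limma (version 3.58.1) with its mean-variance trend, in R (version 4.3.3), on log2(CPM + 1). It was two-sided, and p-values were adjusted over all genes by the Benjamini-Hochberg method, with a threshold of 0.05. Dividing each library's CPM by the value of 1 read gave whole numbers for 100% of values (tolerance 1e-06). On these reads edgeR's quasi-likelihood test (version 4.0.16) called 1920 genes higher and 1866 lower, against 1867 and 1809 with limma, and DESeq2 (version 1.42.0) was run as well. Precision from reads covers counting error only. The scripts were tested on simulated data. Gene positions and exon overlaps are from GENCODE on GRCm38, promoters from RefSeq, and near-identical transcripts from blastn (version 2.17.0; at least 90% identity over 200 bases).

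The members and lists were chosen with earlier results of these data known. HIF pathway genes past the threshold, subunits and oxygen sensing genes are named with all libraries, other members more briefly. From the glycolytic list and the list of other targets and regulators, the rule allowed up to the 4 lowest and 4 highest called genes, and 2 at each end are given. Of the HIF pathway genes, 7 share near-identical sequence with other genes: Bnip3, Bnip3l, P4ha2, Higd1a, Ak4, Selenbp1 and Mif. Exons of 12 overlap a gene on the other strand. The reads of all these genes may be split or shared.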

Additional observations from a re-analysis of the deposited data

How the results depend on the processing

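Of the 17 alternatives, those that moved a count or median are given here. Without the mean-variance trend, 5 HIF pathway genes were higher, namely Bnip3 and 4 of the 11 of the main test. Of all genes, 824 and 616 were higher and lower, as were 2 and 0 glycolytic targets, and 7 and 2 other targets and regulators. DESeq2 called 1066 genes higher and 1117 lower, and 5 glycolytic targets higher. A filter on low mean CPM (at most 1.79) gave 2 HIF pathway genes lower, Angptl4 and Ak4. Quantile normalization left 1 glycolytic target lower and gave Ero1l a log2 fold change of 0.0069. The median log2 fold change of the HIF pathway genes was 0.27 with a pseudocount of 0.1, 0.22 with the filter, 0.15 after quantile normalization, and 0.27 with edgeR and with DESeq2. With 1 library or 1 replicate number left out, 5 to 10 HIF pathway genes were higher and 0 to 1 lower, with a median of 0.12 to 0.23. In those fits 494 to 1464 of all genes were higher and 520 to 1371 lower, as were 3 to 7 and 0 to 3 glycolytic targets and 5 to 17 and 2 to 6 other targets and regulators. Leaving out replicate 3 of both groups gave the lowest counts of all genes. The log2 fold change turned its sign in them for Egln3 (-0.22 to 0.22), Ero1l (-0.051 to 0.0093), Stc2 (-0.037 to 0.15), Selenbp1 (-0.39 to 0.18) and Zfp395 (-0.25 to 0.084), none of which was called. Beyond the smaller number of libraries where some were left out, the cause was not tested.

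With the replicate number as a block, 10 HIF pathway genes were higher and 1 lower, and Higd1a was not called (limma adjusted p = 0.088). Across 10059 genes of at least 10 CPM, deviations from the group mean correlated at 0.030, 0.014 and 0.13 between libraries with the numbers 1, 2 and 3, and across 4962 genes of at least 50 CPM at 0.19, 0.16 and 0.42. At both levels replicate 3 correlated negatively with the other numbers, at -0.046 to -0.094 and at -0.19 to -0.32. Deviations cancel out within a group, so these negative values follow on balance from the positive ones of replicate 3 and add nothing. At both, siCtrl replicate 2 correlated more with siAldoa replicate 1 (0.074 and 0.23) than with its own number. Replicate 3 thus deviated alike in both groups, more strongly at the higher level, while the numbers 1 and 2 were not told apart as pairs. The block changed no other call of a HIF pathway gene. Genes with few reads (Hif1a, Egln3, Bnip3, Car9, Ankrd37, Bhlhe41) are limited by depth.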
